A study of Mus musculus with 35 samples.

Results

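Liver miRNAs were compared between 5 female Big Blue mice killed 7 days after N-ethyl-N-nitrosourea (ENU), the post-treatment day (PTD) 7 group, and 7 female Big Blue mice that had received the vehicle dimethylsulfoxide (DMSO). Big Blue mice carry a transgene used to score mutations, and they were 6 months old in both groups. ENU was given as 1 intraperitoneal dose of 120 mg/kg, and of the 7 control mice the labels place 3 at day 1 and 4 at day 30 after DMSO, so that no control was taken at day 7. Each mouse gave 1 real-time PCR array of 384 wells, and the 12 arrays were chosen by their labels from the 35 arrays of the series. All 376 miRNAs on the array were members of the comparison. They were split by the mean threshold cycle (Ct) of the controls, the cycle in which the fluorescence of a well passes a set line, so that much RNA gives a low Ct. A control mean Ct of at most 30 made 213 miRNAs abundant, and the other 163 were rare.

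A miRNA is a short RNA that pairs through its seed, bases 2 to 8, with sites in messenger RNAs and lowers their translation or stability. ENU ethylates DNA bases. DNA damage activates the transcription factor p53, and the miR-34 genes are among its direct targets. Their miRNAs act on messengers of cell cycle proteins and of BCL2. In liver, miR-122 is the miRNA that marks hepatocytes, miR-221 and miR-222 act on cell cycle inhibitors during regrowth, and the large imprinted miRNA cluster between Dlk1 and Dio3 is mostly silent after birth outside the brain.

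The mature sequences of the miRNAs that carry the results are given 5′ to 3′ with the seed in capitals, from RefSeq on GRCm38.p6. RefSeq held the mature sequence of 17 of the 25 miRNAs named by the rule. The array gives older names without an arm for several, and for these the arm that the older name usually denotes was taken. The first 3 share the seed GGCAGUG, and miR-34b-3p, the opposite arm of the miR-34b hairpin, does not.
miR-34a: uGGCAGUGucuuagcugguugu
miR-34b-5p: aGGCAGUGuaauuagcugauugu
miR-449a: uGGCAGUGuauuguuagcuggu
miR-34b-3p: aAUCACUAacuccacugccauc
These lie at chr4:150068473-150068494 on the plus strand, chr9:51103610-51103632 on the minus strand, chr13:113037549-113037570 on the plus strand and chr9:51103574-51103595 on the minus strand. The miR-34b arms fall within the bounds of Btg4 and Hoatz and miR-449a within those of Cdc20b, while miR-34a falls within no protein-coding gene.

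The other up-regulated abundant miRNAs with a sequence were miR-222, on the X chromosome, and miR-677, within the bounds of Atp5b on chromosome 10.
miR-222: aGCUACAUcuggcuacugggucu
miR-677: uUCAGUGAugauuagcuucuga
A choice of the down-regulated miRNAs with large changes is shown, since down-regulated miRNAs made up most of the called differences. They shared no seed with each other.
miR-369-5p: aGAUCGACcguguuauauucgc
miR-302c*: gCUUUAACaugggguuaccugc
miR-681: cAGCCUCGcuggcaggcagcu
miR-758: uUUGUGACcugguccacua
miR-489: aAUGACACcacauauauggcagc
miR-434-5p: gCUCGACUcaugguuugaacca
miR-883b-5p: uACUGAGAauggguagcaguca
miR-880: uACUCCAUccucucugaguaga
Of these, miR-369-5p (chr12:109743431-109743452), miR-758 (chr12:109712858-109712876) and miR-434-5p (chr12:109594528-109594549) lie in the Dlk1-Dio3 cluster, on the plus strand. miR-883b-5p (chrX:66789936-66789957) and miR-880 (chrX:66800540-66800561) lie near each other on the minus strand of the X chromosome. miR-302c* falls within the bounds of Larp7, miR-489 within those of Calcr and miR-681 within those of Cdkl1.

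The 12 arrays were not run together. Arrays of the series were run in 3 separate periods. The 5 PTD 7 arrays were run on 1 day of the first period, as arrays 13 to 17 of 35 in order, and no control array was run that day. The controls labelled day 1 were arrays 1 to 3, in the same period. Those labelled day 30 were arrays 24 and 25, in the second period, and arrays 34 and 35, in the third. Each array holds 2 reverse transcription control wells, which no miRNA enters. The Ct of the first minus that of the second was between -0.26 and -0.15 in controls 1 to 5, 0.28 and 0.30 in controls 6 and 7, and between -0.02 and 0.18 at PTD 7. Over the whole series, this difference stayed above -0.03 in all of arrays 10 to 23 and below -0.09 in arrays 1 to 9 and 24 to 33. Arrays 10 to 23 were the 5 PTD 7 arrays, the 5 PTD 15 arrays, 3 of the 5 PTD 3 arrays and 1 of the 5 PTD 1 arrays, and none of the controls.

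The controls also differed among themselves. The 4 reference RNAs averaged Ct 21.2 in the controls labelled day 1, 21.96 in those of the second period and 22.3 in those of the third period, beside 22.3 ± 0.497 (SD, n = 5) at PTD 7. Between the 3 controls labelled day 1 and the 4 labelled day 30, 107 miRNAs passed the thresholds used below, all of them lower in the former. Relative to the median Ct of each array 19 passed (5.05%), 7 higher (1.86%) and 12 lower (3.19%) in the controls labelled day 1. The counts at PTD 7 are therefore given against all 7 controls and against each set, as are the values of several single miRNAs. At PTD 7 the median Ct of all miRNAs on an array was 29.8 ± 0.176 (SD, n = 5), and in the controls it was 29.0 ± 0.224 (SD, n = 7). The 2 groups did not overlap (exact permutation test, two-sided, p = 0.00126, the smallest possible for 5 against 7). Within PTD 3 this median was 28.98 and 29.17 in replicates 1 and 2, outside arrays 10 to 23. It was 29.77, 29.95 and 29.94 in replicates 3 to 5, inside them. In PTD 1 it was 30.17 in replicate 4, array 23, and 28.79 to 29.05 in the others. No control lay in arrays 10 to 23, so a change after ENU and a difference of the run cannot be told apart here.

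A differentially expressed miRNA (DEM) had an unadjusted p below 0.01 in limma and a change above 2-fold in -ΔCt, the level relative to the mean of the 4 reference RNAs on a log2 scale. At PTD 7, 37 of the 376 miRNAs were DEMs, which is 9.84%. Of these, 9 were up-regulated (2.39%) and 28 were down-regulated (7.45%). The abundant miRNAs gave 15 DEMs (7.04%), 4 up-regulated (1.88%) and 11 down-regulated (5.16%). The rare miRNAs gave 22 DEMs (13.5%), 5 up-regulated (3.07%) and 17 down-regulated (10.4%). With a Benjamini-Hochberg adjusted p below 0.05 in limma in place of the unadjusted p, 28 were called (7.45%), 6 up-regulated (1.60%) and 22 down-regulated (5.85%). The median log2 fold change was 0.32 over the abundant miRNAs and 0.00 over the rare ones. Against the 3 controls labelled day 1, 101 miRNAs were up-regulated (26.9%) and 23 down-regulated (6.12%). Against the 4 labelled day 30 there were 38 DEMs (10.1%), 5 up-regulated (1.33%) and 33 down-regulated (8.78%). Relative to the median Ct of each array, 44 were up-regulated (11.7%) and 24 down-regulated (6.38%). With that scaling, 79 were up-regulated (21%) and 33 down-regulated (8.78%) against the controls labelled day 1, and 51 (13.6%) and 17 (4.52%) against those labelled day 30. The balance of up- and down-regulated miRNAs thus depended on both the controls and the scaling. In whole liver, fewer cells of a type and less miRNA per cell cannot be told apart. Against both sets, in the same direction, 18 miRNAs passed (4.79%), with 3 up-regulated (0.798%) and 15 down-regulated (3.99%).

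**Figure D1:**
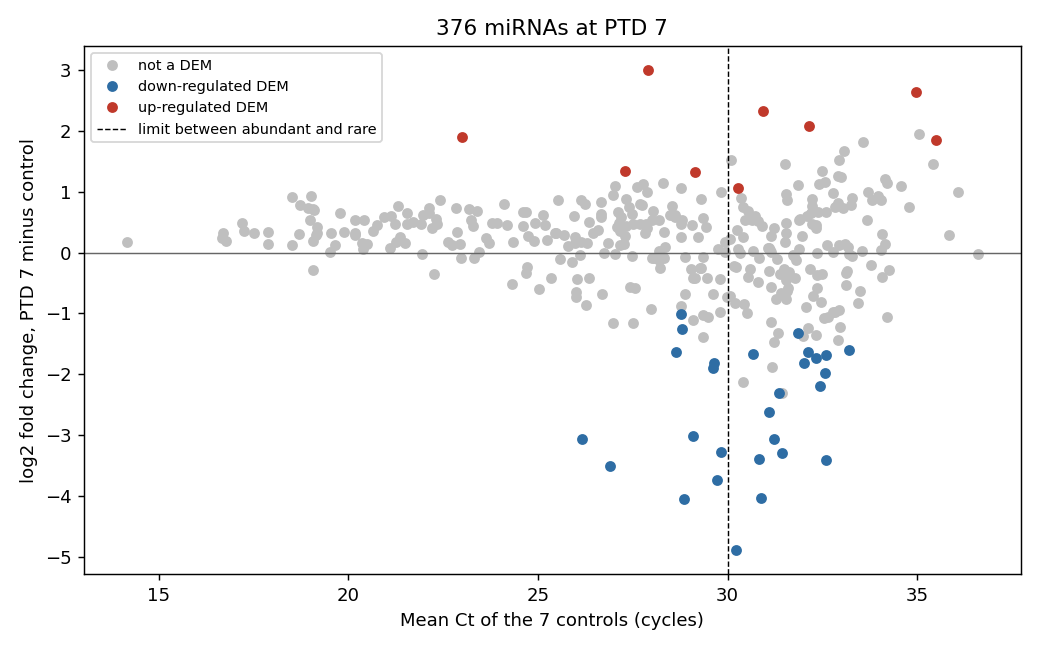
Each point is 1 of the 376 miRNAs, with the mean Ct of the 7 controls on the horizontal axis (cycles, a higher Ct is a lower level) and the log2 fold change of PTD 7 against control on the vertical axis. Grey points are not DEMs, red points are the 9 up-regulated and blue points the 28 down-regulated DEMs. The dashed line is the limit of Ct 30 between abundant and rare miRNAs, and the blue points have control means between 26.2 and 33.2.

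miR-34b-5p and miR-34c stood above all controls in every PTD 7 mouse, and miR-34a did so in 4 of the 5. Levels from here on are -ΔCt minus the mean of the 7 controls, in log2 units. miR-34b-5p stood at 3.08, 2.70, 3.06, 2.94 and 3.24 in PTD 7 replicates 1 to 5, against -0.40 to 0.48 with a median of -0.08 in the controls. Every PTD 7 mouse was far above every control. The log2 fold change was 3.00 ± 0.261 (SE), an 8.03-fold rise (limma, adjusted p = 6.67e-06). It was 3.07 against the controls labelled day 1 and 2.95 against those labelled day 30.

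miR-34c, transcribed with miR-34b, stood at 2.17, 2.26, 2.29, 2.39 and 2.52 at PTD 7, against -0.59 to 0.65 in the controls with a median of -0.16. The groups did not overlap, although the control mean Ct of 30.9 placed it just among the rare miRNAs. Its log2 fold change was 2.33 ± 0.286 (SE) (limma, adjusted p = 0.000154), with 2.45 against the controls labelled day 1 and 2.23 against those labelled day 30.

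miR-34a, the most abundant of the family with a control mean Ct of 22.99, stood at 2.80, 2.39, 2.81 and 2.81 in replicates 1 to 4. In replicate 5 it stood at -1.27, below all 7 controls, which ranged from -0.55 to 0.57. The same mouse had the highest miR-34b-5p and miR-34c of the group. With all 5 mice miR-34a had a log2 fold change of 1.91 ± 0.622 (SE) (limma, adjusted p = 0.0796; exact permutation test, two-sided, p = 0.0240). Without replicate 5 it was 2.70. It was 1.72 against the controls labelled day 1 and 2.05 against those labelled day 30, and it was a DEM in neither. With all 5 mice it was just inside the thresholds, since it lost the call when any of 10 of the 12 mice was left out (controls 1, 2 and 4 to 7 and PTD 7 replicates 1 to 4).

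The other members of the seed family did not pass the thresholds against the 7 controls. The log2 fold changes were 1.00 for miR-449a, 0.60 for miR-449b and 0.88 for miR-449c, with SE between 0.441 and 0.634, and the values depended on the controls. Against those labelled day 1 they were 2.10, 1.47 and 1.83, where miR-449a and miR-449c were DEMs, and against those labelled day 30 they were 0.18, -0.06 and 0.17, where none was. Relative to the median Ct of each array miR-449c was also a DEM. miR-34b-3p, from the other arm of the miR-34b hairpin and with another seed, stood between -0.38 and 0.21 at PTD 7 against -0.74 to 0.80 in the controls, a log2 fold change of -0.22 ± 0.290 (SE). The control mean Ct was 27.9 for the raised arm and 30.2 for the other.

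miR-222 stood at 1.32, 1.55, 1.44, 0.78 and 1.58 at PTD 7, against -0.73 to 1.43 in the controls, so that the groups overlapped through control 3. Its log2 fold change was 1.34 ± 0.378 (SE) (limma, adjusted p = 0.0482). It was 0.87 against the controls labelled day 1, where it was no DEM, and 1.68 against those labelled day 30. miR-221, from the same cluster, changed by 0.87 ± 0.312 (SE) and was below the 2-fold limit. miR-677 stood at 1.01 to 1.69 at PTD 7 and at -0.75 to 0.71 in the controls, without overlap, and its log2 fold change was 1.32 ± 0.303 (SE) (limma, adjusted p = 0.0134). It was 1.76 against the controls labelled day 1 and 0.99 against those labelled day 30, where it was no DEM.

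Of the rare up-regulated DEMs, miR-590-3p had the largest log2 fold change, 2.64 ± 0.846 (SE), with widely scattered controls. It stood at 2.38 to 2.96 in the 5 PTD 7 mice, while the controls ran from -3.68 to 2.45. Against the controls labelled day 1 its log2 fold change was 4.22, and against those of the third run period 0.42, and it lost the call when any of 8 of the 12 mice was left out (controls 2 to 4 and every PTD 7 mouse). miR-590-5p, the other arm, changed by 0.03 ± 0.735 (SE). The remaining rare up-regulated DEMs were miR-672, with a log2 fold change of 2.08 ± 0.484 (SE), miR-466d-5p, with 1.85 ± 0.577 (SE), and miR-335-5p, with 1.06 ± 0.299 (SE). Of the 3 up-regulated DEMs that held against both control sets, 2 were miR-34b-5p and miR-34c and the other was miR-672.

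**Figure D2:**
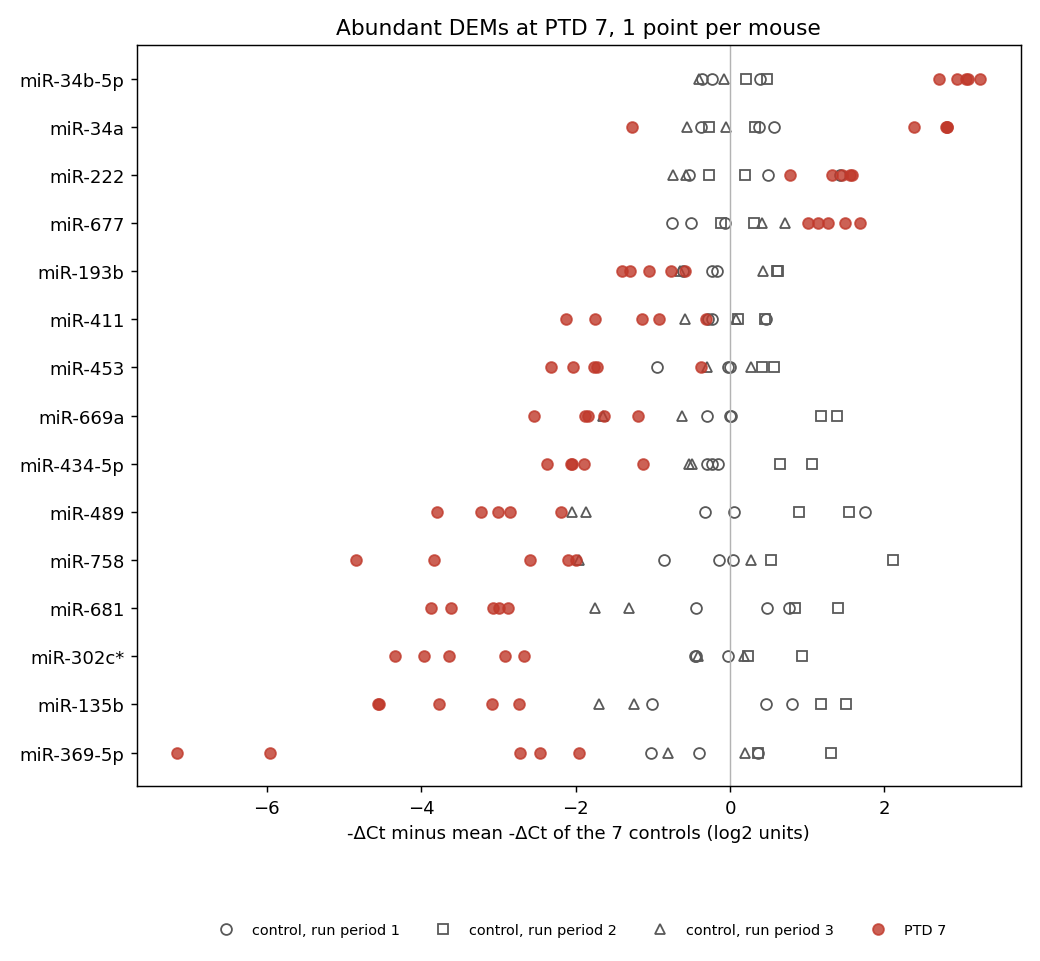
Each row is 1 of the 15 abundant DEMs and each point 1 mouse, with the level in log2 units relative to the mean of the 7 controls on the horizontal axis. Red points are the 5 PTD 7 mice, and open circles, squares and triangles are controls of run periods 1, 2 and 3. miR-34b-5p lies between 2.70 and 3.24 in every PTD 7 mouse, miR-34a has 1 mouse at -1.27, and for miR-489 and miR-681 controls 6 and 7 lie between the other controls and PTD 7.

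The 11 abundant down-regulated DEMs were miR-369-5p, miR-135b, miR-302c*, miR-681, miR-758, miR-489, miR-434-5p, miR-669a, miR-453, miR-411 and miR-193b. miR-302c* is from a cluster known for embryonic stem cells. It stood at -2.91, -3.97, -3.64, -4.34 and -2.67 at PTD 7, and at -0.45 to 0.93 in the controls with a median of -0.03. All PTD 7 mice were below all controls, and the log2 fold change was -3.51 ± 0.363 (SE) (limma, adjusted p = 2.93e-05). The mean Ct moved from 26.9 to 30.9.

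miR-369-5p had the largest abundant change, and the widest scatter. It stood at -2.46, -5.96, -1.96, -2.73 and -7.16 at PTD 7 against -1.02 to 1.31 in the controls. The log2 fold change was -4.05 ± 0.826 (SE) (limma, adjusted p = 0.00744), with replicates 2 and 5 far below the other 3. miR-135b stood at -3.77, -4.55, -4.56, -2.74 and -3.08 against -1.70 or more in every control, a log2 fold change of -3.74 ± 0.599 (SE) (limma, adjusted p = 0.00146). Its paralog miR-135a had a log2 fold change of 0.60 ± 0.661 (SE).

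miR-681, miR-758 and miR-489 had log2 fold changes of -3.29 ± 0.521, -3.07 ± 0.653 and -3.01 ± 0.652 (SE). In miR-489 the lowest 2 controls, at -2.05 and -1.86, were those of the third run period, and the highest PTD 7 mouse was at -2.19. Against those 2 controls alone its log2 fold change was -1.06, compared with -3.51 against the controls labelled day 1. The remaining 5 changed less, from -1.90 ± 0.348 (SE) for miR-434-5p to -1.02 ± 0.319 (SE) for miR-193b, and except for miR-434-5p their PTD 7 and control values overlapped. Against the controls labelled day 1, miR-453, miR-411 and miR-193b were no DEMs, and against those labelled day 30 miR-669a was none. miR-193b, of the hepatocyte list, had an adjusted p of 0.0719 in limma and lost the call without any of controls 4, 5 and 7 or PTD 7 replicates 1 to 3, with values from -1.01 to -0.91 in those 6 fits. miR-411 lost it without PTD 7 replicate 1, at -1.12.

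The rare down-regulated DEMs reached the largest changes and the latest cycles. miR-684 stood at -5.04, -6.54, -5.39, -4.98 and -2.53 at PTD 7. In the controls it stood at 1.77, 0.87, 1.30, 0.46 and 1.28 in the first 5 and at -2.06 and -3.62 in the 2 of the third run period, so that the groups overlapped through control 7 alone, the highest PTD 7 mouse being at -2.53. Its log2 fold change was -4.90 ± 0.932 (SE) (limma, adjusted p = 0.00474), at a mean Ct of 35.6 at PTD 7. It was -6.21 against the controls of the first period and -2.06 against those of the third.

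miR-883b-5p stood between -4.21 and -3.96 in all 5 PTD 7 mice, at a mean Ct of 35.4, and between -2.56 and 1.74 in the controls. Its log2 fold change was -4.04 ± 0.649 (SE) (limma, adjusted p = 0.00146), while miR-883b-3p, the other arm, changed by 1.21 ± 0.653 (SE). miR-880, from the same stretch of the X chromosome, stood at -3.41, -4.80, -3.58, -3.14 and -2.11 against -1.85 to 1.66, a log2 fold change of -3.41 ± 0.598 (SE) (limma, adjusted p = 0.00267). Its mean Ct was 36.5 at PTD 7, and with every Ct above 35 set to 35 the log2 fold change was -1.91. The same setting gave -4.02 for miR-684 and 2.01 for miR-590-3p. miR-742, also from that stretch, had a log2 fold change of -2.63 ± 0.837 (SE), but of -0.08 against controls 6 and 7. It was no DEM against the controls labelled day 30 and lost the call when any of 8 of the 12 mice was left out (controls 1 to 5 and PTD 7 replicates 1 to 3).

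The other rare miRNAs named by the size of their change were miR-875-3p, with a log2 fold change of -3.39 ± 0.567 (SE), miR-464, with -3.29 ± 0.717 (SE), miR-220, with -3.07 ± 0.688 (SE), and miR-9*, with -2.31 ± 0.482 (SE). Among these, miR-875-3p and miR-9* did not overlap with the controls. The remaining 9 rare down-regulated DEMs, miR-292-5p, miR-710, miR-496, miR-653, miR-764-3p, miR-509-5p, miR-129-3p, miR-384-5p and miR-337-3p, had log2 fold changes from -2.20 to -1.32, and of these miR-292-5p alone was a DEM against both sets of controls. Over all 28 down-regulated DEMs the mean Ct at PTD 7 lay between 29.7 and 36.5. Of the 28, 12 lay without overlap below the controls (32.4% of the 37 DEMs), in a table where 13 of 376 miRNAs (3.46%) did so. Of the 9 up-regulated DEMs, 3 lay without overlap above (8.11% of the 37 DEMs), where 8 of 376 (2.13%) did so. The 37 hold DEMs of both directions, so these are not shares of the 28 or of the 9. DEMs were called on the same PTD 7 and control values, so a higher share than over all miRNAs follows from the call. The comparison therefore cannot serve as a separate test of the DEMs.

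**Figure D3:**
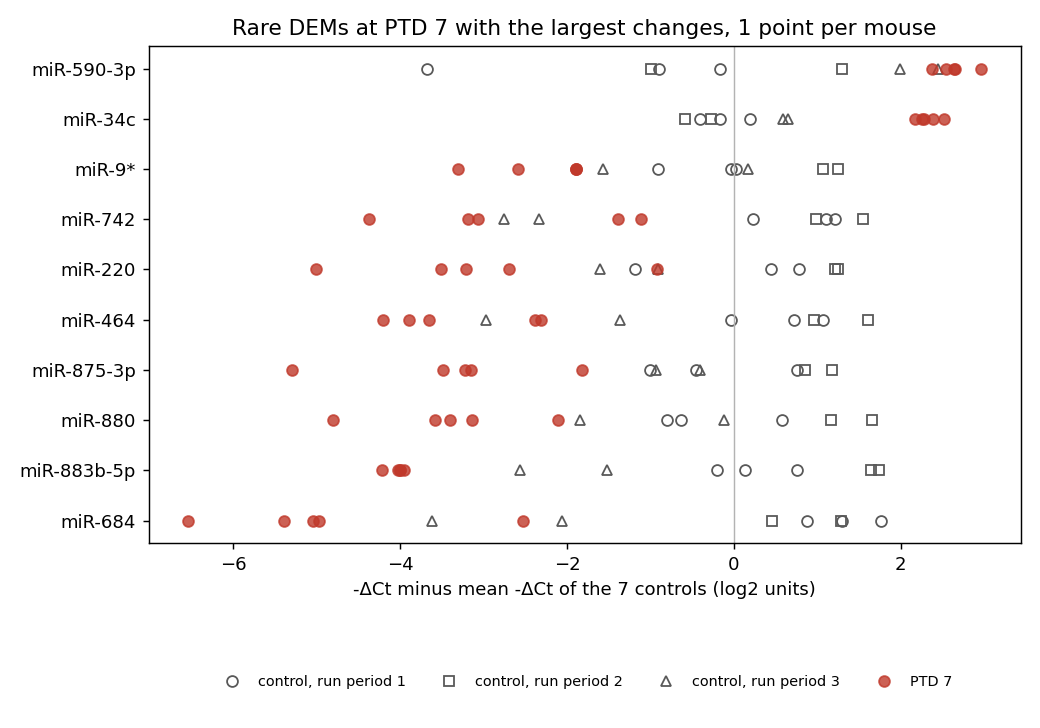
Each row is 1 of the 10 rare DEMs with the largest changes and each point 1 mouse, in log2 units relative to the mean of the 7 controls. Red points are PTD 7 mice, and open circles, squares and triangles are controls of run periods 1, 2 and 3. For miR-684, controls 6 and 7 stand at -2.06 and -3.62, below the other 5 controls, and miR-883b-5p lies within -4.21 to -3.96 at PTD 7.

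The down-regulated DEMs were followed through all 35 arrays in the order of running. The mean of the 28 was between -3.34 and -1.88 in the 5 PTD 7 arrays, and between -1.04 and 1.24 in the controls, with the lowest 2 values, -0.67 and -1.04, in controls 6 and 7, the only controls in which that difference of wells was above 0. In the PTD 3 group it was -0.11 and 0.36 in replicates 1 and 2 and -3.07, -2.04 and -2.86 in replicates 3 to 5. Replicates 1 to 4 of PTD 3 were run on the same day, as arrays 8 to 11, so the drop lay between consecutive arrays of 1 treatment group. In the PTD 1 group it was -0.32 to 0.99 in the 4 arrays of the first period and -1.81 in replicate 4, which was array 23. The arrays with low values were the 14 of arrays 10 to 23, where the control wells also stood apart.

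Within PTD 3, 24 of the 28 down-regulated DEMs were lower in each of the 3 arrays of this stretch than in both other arrays, beside 76 of all 376 miRNAs (20.2%). Their median difference between the 3 and the 2 arrays was -2.69, against -2.26 for their median log2 fold change at PTD 7. For miR-302c*, PTD 3 replicates 1 and 2 stood at -0.42 and 0.06 and replicates 3 to 5 at -4.37, -2.90 and -3.99. For miR-681 the values were 0.17 and 0.26, then -3.86, -2.78 and -2.61. For miR-684 they were -0.88 and -0.70, then -6.40, -4.66 and -4.48. Within 1 treatment group, arrays of 1 run day thus lay several log2 units apart. In PTD 1, replicate 4 was the lowest of the 5 for 21 of the 28, beside 102 of all 376 (27.1%). This single array stood apart in other ways too. Its snoRNA202 Ct was 21.25, against 22.85 to 23.36 in the other PTD 1 arrays. It had 28 wells above Ct 35, against 8 to 12, and it alone of the stretch was run in the second period.

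In miR-34b-5p and miR-34c the arrays on both sides of this split overlapped. miR-34b-5p stood at 2.21 and 2.30 in PTD 3 replicates 1 and 2 and at 2.35, 3.40 and 1.44 in replicates 3 to 5. miR-34c stood at 1.28 and 1.91, then at 1.92, 3.08 and 1.17. Of the 9 up-regulated DEMs, 3 were higher in all 3 PTD 3 arrays of the stretch than in the other 2, beside 35 of all 376 miRNAs (9.31%).

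**Figure D4:**
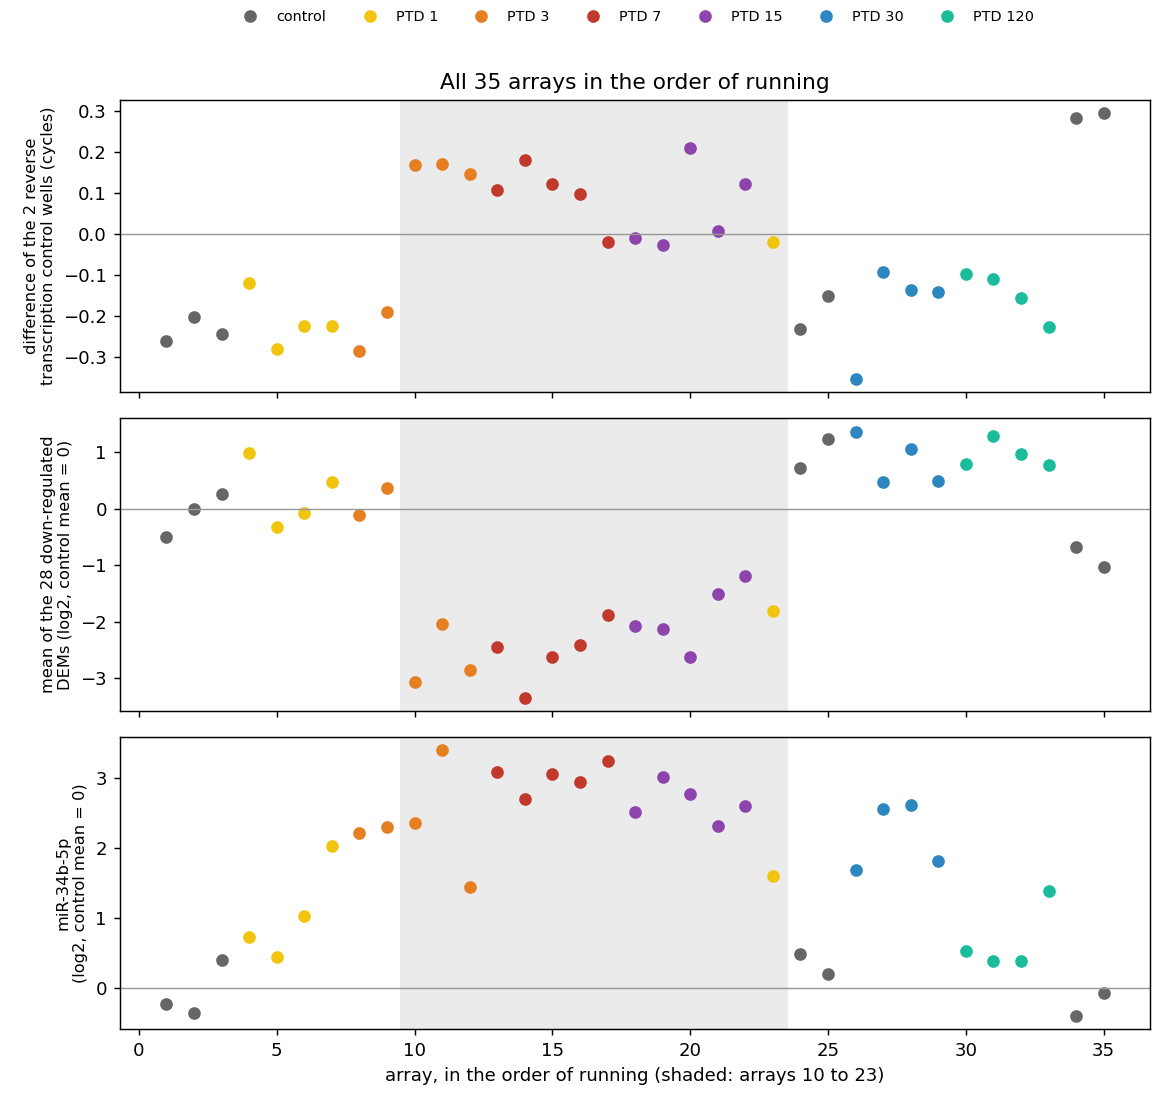
All 35 arrays are shown in the order of running, 1 point per array, coloured by group. The upper panel gives the difference of the 2 reverse transcription control wells in cycles, the middle panel the mean of the 28 miRNAs down-regulated at PTD 7, and the lower panel miR-34b-5p, both in log2 units relative to the mean of the 7 controls. In the shaded arrays 10 to 23 the mean of the 28 miRNAs is between -3.34 and -1.20 whatever the group, while miR-34b-5p in PTD 3 is between 1.44 and 3.40 on both sides of the start of the shading.

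Since PTD 3 and PTD 1 had arrays inside and outside the stretch, a limma fit of all 7 groups with arrays 10 to 23 as a block could be made. The block was chosen after the data were seen. It separates PTD 7 from the controls only through 4 arrays of PTD 3 and PTD 1 inside the stretch, and the standard errors are wider. In that fit 7 miRNAs were DEMs (1.86%), all up-regulated. Without the block, the fit of all 7 groups called 36. The 7 included miR-34b-5p, at 2.70 ± 0.466 (SE) (limma, adjusted p = 0.000774), and miR-34c, at 2.04 ± 0.536 (SE) (limma, adjusted p = 0.0573), and 5 that were not DEMs against the 7 controls, miR-181c, miR-144, miR-345-5p, miR-296-5p and miR-33. Of the other named up-regulated DEMs none was called. miR-34a was at 1.85 ± 0.728 (SE) and miR-222 at 1.27 ± 0.525 (SE), while miR-677 was at 0.11 ± 0.469 (SE) and miR-590-3p at 0.49 ± 1.09 (SE).

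None of the 28 down-regulated DEMs was called in the block fit, and 1 of them, miR-880, had an unadjusted p below 0.05 in limma in the same direction, at -2.07 ± 0.856 (SE), while 2, miR-496 and miR-764-3p, had one in the opposite direction. Over all 376 miRNAs, 23 had an unadjusted p below 0.05 and were higher (6.12%) and 3 were lower (0.798%). The median log2 fold change of the 28 went from -2.26 to -0.31. miR-302c* was at -0.97 ± 0.732 (SE), miR-681 at -0.21 ± 0.701 (SE), miR-135b at -0.29 ± 0.948 (SE), miR-883b-5p at -0.47 ± 0.970 (SE) and miR-489 at 0.15 ± 0.782 (SE). With the 16 arrays whose control wells differed by more than -0.05 as the block, which adds controls 6 and 7 to the stretch, 7 miRNAs were up-regulated and 8 down-regulated (3.99% in all), and 6 of the 8 were among the 28. These 6 were miR-369-5p, miR-880, miR-302c*, miR-883b-5p, miR-681 and miR-684. As no control array was run within arrays 10 to 23, a drop of these miRNAs after ENU and a difference of the run cannot be told apart in the comparison of PTD 7 with control.

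**Figure D5:**
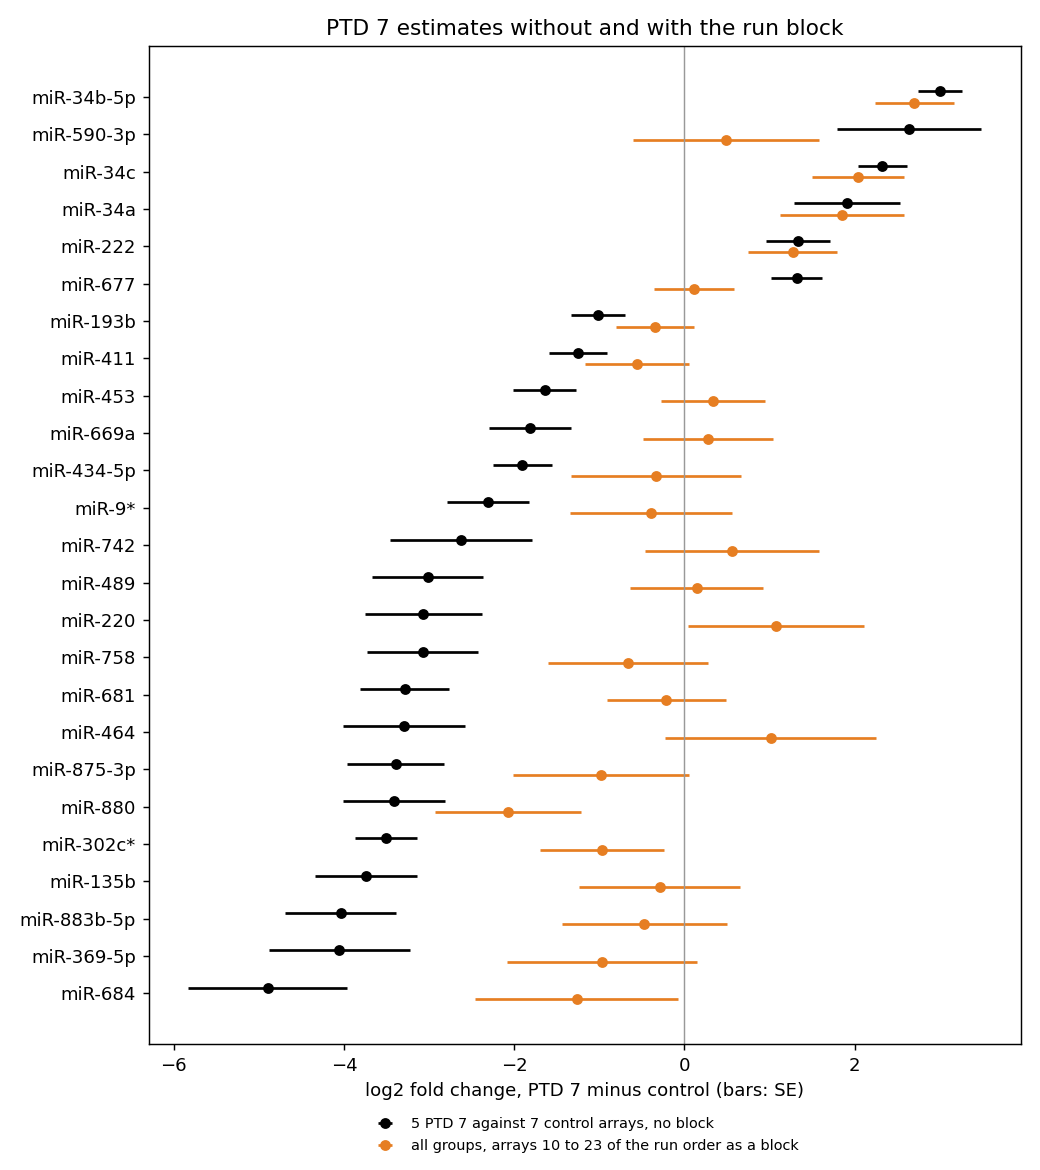
For the 25 named miRNAs, black points are the log2 fold changes of PTD 7 against the 7 controls and orange points those of a fit of all groups with arrays 10 to 23 of the run order as a block, each with its SE as a bar. The orange points of miR-34b-5p, miR-34c, miR-34a and miR-222 lie close to the black ones, while those of miR-677, miR-681, miR-135b and miR-489 lie near 0.

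Several lists were defined by genomic clusters. The list of Dlk1-Dio3 miRNAs had 44 members on the array, of which 7 were down-regulated, in a table where 7.45% of all miRNAs were, and none was up-regulated, with a median log2 fold change of -0.39 beside 0.19 over all miRNAs. The sign of this median turned with the controls, at 0.15 against those labelled day 1 and -0.74 against those labelled day 30, where the medians over all miRNAs were 0.84 and -0.32. The 7 were miR-369-5p, miR-758, miR-434-5p, miR-496, miR-453, miR-337-3p and miR-411. RefSeq placed 41 of the 44 on chromosome 12, between 109563692 and 109743496. Relative to the median Ct of each array 6 were down-regulated and 4 up-regulated, beside 6.38% and 11.7% of all miRNAs. Up-regulated against the controls labelled day 1 were 10 of the 44, beside 26.9% of all miRNAs. With the block on arrays 10 to 23 the median was 0.19 and no member was called. Of 17 X-linked miRNAs best known from testis 3 were down-regulated, beside 7.45% of all miRNAs and 10.4% of the rare ones. The list's median log2 fold change was -0.41 (0.55 and -1.12 against the controls labelled day 1 and day 30). The 3 hairpins lay within 66780373 to 66800607 of the X chromosome. Of 13 miRNAs of pluripotency clusters 2 were down-regulated, miR-302c* and miR-292-5p, beside the same shares. The median was -0.05 (0.61 and -0.83 against the controls labelled day 1 and day 30). With the block on arrays 10 to 23 the medians of the X-linked and pluripotency lists were -0.03 and -0.40, and no member was called.

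For 11 DEMs the array also held the other arm of the same hairpin, and no other arm was a DEM. For miR-434, miR-384 and miR-9 both arms had a negative log2 fold change, of -1.90 and -0.63, of -1.60 and -0.98, and of -2.31 and -1.47. For miR-883b, miR-292, miR-129, miR-337, miR-34b and miR-466d the arms had opposite signs, and the widest gap was that of miR-883b, at -4.04 and 1.21. For miR-335 and miR-590 both arms were above 0.

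In the lists of cell growth and differentiation, miR-222 was the 1 DEM against the 7 controls, where 9.84% of all miRNAs were DEMs. In the 13 members of the miR-17-92 cluster and its paralogs, which promote proliferation, none was a DEM, while all 13 log2 fold changes were above 0, beside 234 of all 376 miRNAs and 152 of the 213 abundant ones, with a median of 0.65 and miR-93 highest at 0.87 ± 0.316 (SE). The median was 1.17 against the controls labelled day 1, where 9 were up-regulated, and 0.17 against those labelled day 30, where none was. Over all miRNAs the medians were 0.84 and -0.32, with 26.9% and 1.33% up-regulated. When levels were taken relative to the median Ct of the array instead, which moved the median over all miRNAs from 0.19 to 0.49, 3 of the 13 and 3 let-7 miRNAs were up-regulated, beside 11.7% of all miRNAs. Of the 9 let-7 miRNAs, linked to differentiation, none was a DEM. Against the controls labelled day 1, 7 of the 9 were up-regulated, with a median log2 fold change of 1.31, beside the same 26.9% and 0.84 over all miRNAs. Against those labelled day 30 none was, with a median of 0.09. let-7b had the largest change against the 7 controls, at 0.86, 0.44, 1.14, 0.95 and 1.29 at PTD 7 against -0.47 to 0.92 in the controls, a log2 fold change of 0.94 ± 0.300 (SE) (limma, adjusted p = 0.0758). In the family of miR-130 and miR-301, none of 4 was a DEM against the 7 controls, with log2 fold changes from 0.27 to 0.87. The median was 0.46 against the controls labelled day 1, where none was up-regulated, beside 26.9% of all miRNAs. It was 0.67 against those labelled day 30, where 1 was up-regulated, beside 1.33% of all miRNAs. miR-21, which rises in many injured tissues, changed by 0.33 ± 0.468 (SE).

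The marker lists of liver and blood cells held 1 DEM against the 7 controls. miR-122 had the lowest Ct of the array in the controls, 14.2, and stood between -0.62 and 0.75 at PTD 7 against -0.85 to 0.69, a log2 fold change of 0.18 ± 0.373 (SE). Of 11 hepatocyte miRNAs 1, miR-193b, was a DEM, where 9.84% of all miRNAs were. Against the controls labelled day 1, 3 of the 11 were up-regulated, beside 26.9% of all miRNAs, and against those labelled day 30 none was, with a median of -0.36. Of 9 leukocyte miRNAs none was a DEM, and their median log2 fold change was 0.08 (0.82 and -0.52 against the controls labelled day 1 and day 30), with miR-142-5p lowest at -1.16 ± 0.415 (SE). Of 3 erythroid miRNAs none was a DEM against the 7 controls, with log2 fold changes of 0.78 for miR-144, 0.70 for miR-451 and 0.54 for miR-486. Of 13 endothelial and stromal miRNAs none was a DEM, with a median of 0.28 (1.06 and -0.35 against the controls labelled day 1 and day 30, beside 0.84 and -0.32 over all miRNAs). Against the former 3 of the 13 were up-regulated, beside 26.9% of all miRNAs. Of the remaining lists, the neural list held miR-9*, the Sfmbt2 list miR-466d-5p and miR-669a, the miR-135 pair miR-135b and the miR-590 arms miR-590-3p. The p53-responsive list, kept apart from miR-34, held no DEM against the 7 controls. Nor did the miR-15/16, epithelial, muscle, pancreas, miR-29, miR-30 and miR-23/27/24 lists. Against the controls labelled day 1, 3 of 6 p53-responsive, 2 of 7 miR-15/16, 4 of 12 epithelial and 2 of 5 muscle miRNAs were up-regulated. So were 1 of 3 of miR-29 and 1 of 5 of miR-30, beside 26.9% of all miRNAs. Against those labelled day 30 no member of these lists was up-regulated.

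PTD 7 was set against the other early groups, which were run closest to it. Against PTD 15, whose arrays 18 to 22 followed directly, 6 miRNAs were DEMs (1.60%), all lower at PTD 7. Scaled to the array's median Ct, 6 miRNAs were DEMs, 5 higher and 1 lower, and with the control wells as a covariate 2 were higher and 2 lower, so the direction turned with the scaling. With the reference RNAs they were miR-880, miR-329, miR-154*, miR-125a-3p, miR-687 and miR-764-3p, and no adjusted p in limma was below 0.05, while 24 miRNAs (6.38%) had an unadjusted p below 0.05. The count was 1 without PTD 7 replicate 1 or 3 or PTD 15 replicate 1 or 5, 3 without PTD 7 replicate 2 or PTD 15 replicate 4, and 10 without PTD 15 replicate 3. miR-34b-5p differed between PTD 7 and PTD 15 by 0.37 ± 0.227 (SE) and miR-34c by 0.26 ± 0.250 (SE). Against PTD 3, 4 miRNAs were DEMs (1.06%), with miR-464 lower and miR-380-3p, miR-743b-5p and miR-465a-5p higher at PTD 7, again with no adjusted p below 0.05 in limma and 18 unadjusted p below 0.05 (4.79%). The count was 0 without PTD 3 replicate 1, 12 without PTD 3 replicate 4, 7 without PTD 7 replicate 2, 2 without PTD 7 replicate 1 or 4, and 1 without PTD 7 replicate 3 or 5. When only the 3 PTD 3 arrays of the stretch were used, none was a DEM, 14 of the 376 had an unadjusted p below 0.05 in limma, and none of these 14 was among the 28 down-regulated at PTD 7.

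Against PTD 1, 63 miRNAs were DEMs (16.8%), 40 higher (10.6%) and 23 lower (6.12%) at PTD 7. The PTD 7 arrays all lay in the stretch and 4 of the 5 PTD 1 arrays did not, and 11 were DEMs when the control-well difference entered the fit as a covariate. miR-34b-5p was higher at PTD 7 by 1.84 ± 0.376 (SE) (limma, adjusted p = 0.00487) and miR-34c by 1.70 ± 0.367 (SE) (limma, adjusted p = 0.00697). In the PTD 1 mice miR-34b-5p ran from 0.44 to 2.03, and it stood at 1.60 in the 1 PTD 1 array of the stretch, below all 5 PTD 7 mice. For miR-302c* the difference, PTD 7 minus PTD 1, was -3.38 ± 0.428 (SE) (limma, adjusted p = 0.000204). It stood at -0.91 in that PTD 1 array, the lowest of its group, which ran from -0.91 to 0.62. miR-464, at -5.76 in that array, was lower there than in any PTD 7 mouse, where it ran from -4.20 to -2.31.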

How the data were processed

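The authors deposited the Ct of each of 384 wells per array, calculated with SDS (version 2.3) at a fixed threshold line of 0.15 over 40 cycles. These deposited values are not normalized, and they are cycles on a log2 scale. Wells were named from the plate order in the study's supplementary table. Small RNA below 200 nucleotides had been reverse transcribed and measured with SYBR Green. ΔCt was the Ct minus the average over the wells of U6, snoRNA142, snoRNA202 and snoRNA251 of the array, and the 3 Undetermined wells of the 12 arrays were missing. Groups came from the labels. They give 3 controls of day 1 and 4 of day 30, where the Methods give 4 and 3.

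PTD 7 was compared with control with the two-sided test of limma (version 3.58.1; R version 4.3.3) applied to -ΔCt, which replaced the t-test of the Methods as the main test. For single values, an exact permutation test enumerated the 792 splits. Figures used matplotlib (version 3.10.9) and pandas (version 2.3.3) in Python (version 3.11.15). The fits were tested on simulated data. Run order, run day and run period came from the arrays' own records.

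Named were all abundant DEMs, the 10 rare DEMs with the largest absolute log2 fold change, DEMs of the lists, and any member of the miR-34 and miR-449, miR-17-92, let-7, miR-130 and miR-301, miR-221, miR-222 and miR-21, hepatocyte, leukocyte and erythroid lists. Counts over the 25 named miRNAs cover only the 15 abundant and those 10 rare DEMs. Other rare DEMs, other arms, paralogs and the DEMs of the block fits and of other PTD comparisons were chosen for naming with their values in view. The members and lists were chosen with earlier results of these data known. Other lists were p53-responsive, miR-15/16, epithelial and bile duct, muscle, neural, pancreas, Sfmbt2, miR-29, miR-30, miR-23/27/24, miR-135 and miR-590 miRNAs.

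Alternatives were the median Ct of each array, each set of 3 reference RNAs, Undetermined as 40, Ct above 35 set to 35, the methods' t-test, an exact test of each miRNA, adjusted p, all groups in 1 fit, each set of controls, run period, replicate number or control wells as a term, and each sample left out. Blocks on the run order were added after the data were seen. Precision is limited by how many arrays there are.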

Additional observations from a re-analysis of the deposited data

Results flagged for a closer look

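Among the 50 groups of values of the 25 named miRNAs, 2 held a mouse far from the rest, and chance gives about 1 in 20 groups. In miR-34a at PTD 7, replicate 5 stood at -1.27 beside 2.39 to 2.81 in the other 4, a gap of 0.896 of the whole range. In miR-883b-5p at PTD 7, 1 mouse stood at -4.21, a gap of 0.740 of a range that was narrow.

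Of the 25 named miRNAs, 16 differed between PTD 7 and PTD 1 with an adjusted p below 0.05 in limma, beside 50 of all 376 (13.3%). The 25 were chosen by their PTD 7 values, which also enter this comparison, so a higher share follows in part from the choice. The split by run order also crosses that comparison.

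The difference of the 2 reverse transcription control wells, which is no term in the main comparison, was higher at PTD 7 than in the controls by 0.171 cycles (exact permutation test, two-sided, p = 0.170). In every PTD 7 array it was above controls 1 to 5 and below controls 6 and 7. Its part in the results was not tested beyond the fits with it as a term or as a block.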

How the results depend on the processing

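The number of DEMs at PTD 7 was 37, and 28 to 44 with 1 mouse left out. It was 68 with the median Ct of each array, 124 against the controls labelled day 1 (112 with the median Ct), 68 against those labelled day 30 with the median Ct, 143 with run period as a block, 72 without the 2 controls of the third period, 7 with arrays 10 to 23 as a block and 15 with the control-well classes as a block. The abundant DEMs numbered 37, 71 (54), 47, 88, 5 and 8 under the same settings other than the left-out controls, 25 with only the second-period controls, 7 with only the third-period ones, and 12 to 18 with 1 mouse left out. The rare DEMs numbered 53 against the controls labelled day 1 (58), 55 with run period, 50 without the third-period controls, 2 and 7 with the 2 blocks, 13 with the control wells as a covariate in all groups, and 15 to 30 with 1 mouse left out. The calls against PTD 15 ranged from 1 to 10, against PTD 3 from 0 to 12 and against PTD 1 from 44 to 81 with 1 mouse left out. With adjusted p there were 0 calls against PTD 15 and 0 against PTD 3, and 0 with only the 3 PTD 3 arrays of the stretch.

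The replicate block gave 29 DEMs against control and 95 against PTD 1, where the control-well covariate gave 11. Numbers were not taken as pairs, since the same-numbered correlations ran from -0.12 to 0.13. For the 25 named miRNAs, 522 of 625 alternatives kept direction and call, 97 lost the call and 6 reversed. All 6 reversed with arrays 10 to 23 as a block: miR-669a 0.28, miR-489 0.15, miR-453 0.33, miR-464 1.01, miR-220 1.07 and miR-742 0.56. In that fit only miR-34b-5p and miR-34c of the 25 kept the call. Leaving out a mouse or a reference RNA keeps the run difference between PTD 7 and control in place, so those alternatives cannot test it. Where fewer or other samples entered, the cause of a change was not tested. Late cycles limit the rare miRNAs: 17.8 wells per array at PTD 7 and 10.3 in the controls were above Ct 35.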
